A study of Homo sapiens with 9 samples.

Results

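HCT116 cells that received a control siRNA are the reference against which the study compared cells depleted of the mRNA export factors GANP and NXF1, and their cytoplasmic RNA on its own is described here. HCT116 is an established human colorectal carcinoma line. The 3 arrays were chosen by their label, a transfection with Control siRNA, and are 3 of the 9 arrays of the series, the others being 3 with GANP siRNA and 3 with NXF1 siRNA. Each control array holds biotin-labelled RNA from one of 3 independent depletion experiments, numbered in the labels, so that every experiment contributed 1 array to each group. All 9 cultures were transfected and were harvested after 72 h, and no array of untransfected cells, of nuclear RNA or of whole-cell RNA was analysed here. The control siRNA differs from the GANP siRNA at a pair of bases, as the study's methods state, and the cytoplasm was released by permeabilising the cells with digitonin, a detergent that opens the plasma membrane but spares the nuclear envelope. The cells are 1 line in culture, without the stroma, blood and vessels of a tumour.

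Cytoplasmic mRNA is the pool that ribosomes can translate. In a dividing epithelial line it is known to be dominated by messages for ribosomes, translation factors, the cytoskeleton and energy metabolism, whereas genes of other cell lineages are largely silent. Ribosomal protein messages and those of many translation factors belong to the class called TOP mRNAs, whose transcripts begin with a C and an unbroken run of pyrimidines (C or T) through which their translation follows nutrient supply. The starts of several genes with bright signals are shown here, some with that run and some without it, since its frequency by gene class and by signal is described at the end. Each line gives the last 20 bases before the annotated start and the first 10 bases from it, in RefSeq GRCh38.p14, read 5′ to 3′ on the strand of the gene, with capitals marking a C at the start and the pyrimidines that follow it, where there are at least 5 of them.
EEF1A1, chr6:73521023-73521052, minus strand: cagtagtcgccgtgaacgttCTTTTTCgca
TPT1, chr13:45341174-45341203, minus strand: tggggagcggctgagtcggcCTTTTCCgcc
RPS3, chr11:75399498-75399527, plus strand: cttccgcccgcgagccacttCCTTTCCTTT
RPS12, chr6:132814549-132814578, plus strand: ggcatgcgtgcggatgaggcCTCTTTCCCT
RPS27, chr1:153990742-153990771, plus strand: gcaggatttccgctttcgctCCTTTCCggc
RPS6, chr9:19380227-19380256, minus strand: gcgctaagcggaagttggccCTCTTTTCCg
RPS10, chr6:34426060-34426089, minus strand: cagcaccgcgcatgctccttCCTTTCCagc
COX4I1, chr16:85799675-85799704, plus strand: ctccgcggcgcggccttgctCTCTTCCggt
OAZ1, chr19:2269466-2269495, plus strand: ggggggcgtggcctgggcgcagcatctata
ACTG1, chr17:81512790-81512819, minus strand: cgggggaggccgcggtcggtctcagtcgcc
ENO1, chr1:8878677-8878706, minus strand: tcggcgcgggcggcgcggacagtatctgtg
GAPDH, chr12:6535244-6535273, plus strand: tgcgcagcgggtgcatccctgtccggatgc
RPL27, chr17:42998399-42998428, plus strand: cctcaccggggtgaaaggttagcggaagtg
RPL41, chr12:56116613-56116642, plus strand: gtagacggaacttcgcctttctctcggcct
FTL, chr19:48965289-48965318, plus strand: cgccctagccacgtcccctcgcagttcggc
EEF1G, chr11:62573882-62573911, minus strand: ccttctctcccgggcggcttactttgcggc
The first 8 starts carry the run and the others do not, ribosomal proteins and an elongation factor subunit among them. Of the 30 genes with the brightest signals, 24 had a start sequence to print and 10 of these carried the run. EEF1A1 encodes the elongation factor that delivers aminoacyl-tRNA to the ribosome, TPT1 the translationally controlled tumour protein, whose message is also a TOP mRNA, and COX4I1 a subunit of cytochrome c oxidase. OAZ1 encodes the antizyme that controls polyamine synthesis, ACTG1 a cytoplasmic actin, and ENO1 and GAPDH glycolytic enzymes.

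The array measured 48803 probes, of which 27578 carried 1 gene symbol, and these named 18665 genes. The signal of a probe is a fluorescence intensity on a linear scale, and between genes it depends on the probe as well as on the amount of RNA, so levels are given per gene and are not ranked as amounts of mRNA. In genes with several probes that were all detected (1620 genes), the brightest and the dimmest probe differed by a median of 2.47-fold, and by more than 4-fold in 34.4%. The brightest probe stood for each gene. Background was taken from the 434 probes of 367 olfactory receptor genes, most of which are silent outside the nose, and their 95th percentile was 118 in experiment 1 and 114 in experiments 2 and 3. A gene was called detected when any of its probes lay above that level on all 3 control arrays, and at background when none lay above it on any array. On this rule 9872 genes (52.9%) were detected, 7428 (39.8%) were at background and 1365 lay in between. By the same rule 14 of the 367 olfactory receptor genes (3.81%) were detected, a share that follows from setting the threshold at the 95th percentile of these same probes. The 14 were kept among the background probes, so the threshold may not be free of expressed genes. Of the detected genes with several probes, 56.4% also had a probe that was not detected, so a gene at background can be a gene whose probe fails to report it. RPL10, a ribosomal protein that every cell needs, gave signals of 90.1, 94.995 and 98.9 in experiments 1, 2 and 3. EIF4E, the cap-binding translation factor, gave 108, 119 and 103. Both lie at the level of olfactory receptors, and background signals below are therefore read as a signal that was not seen, not as absence of the transcript.

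**Figure D1:**
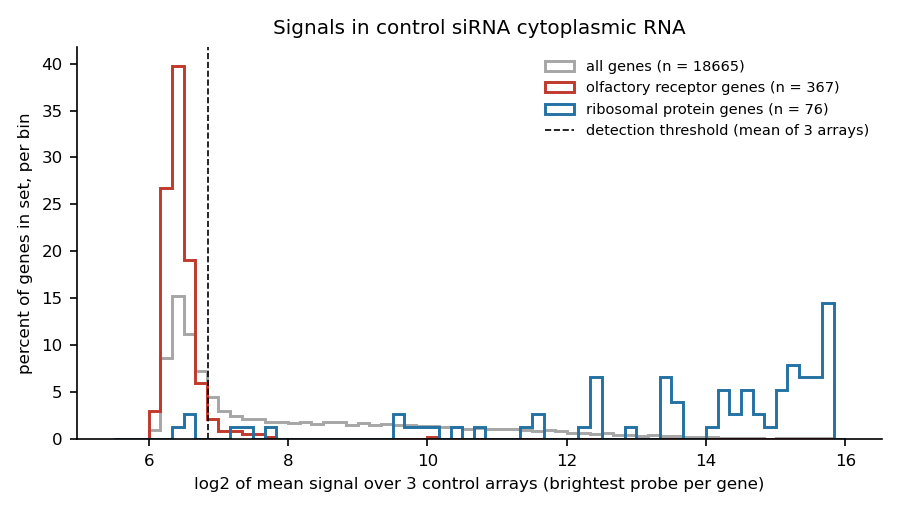
Percent of genes in each bin of log2 mean signal over the 3 control siRNA arrays (x axis, brightest probe per gene) for all 18665 genes, 367 olfactory receptor genes and 76 ribosomal protein genes. The olfactory receptor genes form a narrow peak below the dashed detection threshold, and most ribosomal protein genes lie at the bright end.

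Many of the brightest signals from named probes belonged to genes of protein synthesis, although 42 of the 100 brightest probes carried no gene symbol and are not described. Of the 30 genes with the highest mean signal, 15 encode ribosomal proteins, and 4 are on the list of translation factors (EEF1A1, EEF1G, EIF4A1 and TPT1, the last of which is related to translation without being a factor in the strict sense). Of the 100 brightest named genes, 33 encode ribosomal proteins, 9 are on the list of translation factors, 5 encode respiratory chain subunits and 3 glycolytic enzymes. EEF1A1 gave signals of 59933, 58089 and 56901 in experiments 1, 2 and 3, TPT1 gave 54189.6, 57215 and 58771, and RPS3, a protein of the small ribosomal subunit, gave 57585, 54606 and 57215. The 3 experiments lay within a narrow range for each of them. Normalization gave the arrays a shared set of values. The same signal, 58089, was that of EEF1A1 in experiment 2, OAZ1 in experiment 3 and FTL in experiment 1. A narrow range among the brightest genes can therefore follow in part from normalization. Whether these signals were saturated was not tested. RPS12 was the least even ribosomal protein among the 30, with 46157, 59164 and 52917, lowest in experiment 1 and highest in experiment 2. RPL41, which encodes a very short ribosomal protein, gave 54606, 54001 and 53809.7. The 30 further held OAZ1 (55424, 56373 and 58089), the ferritin light chain FTL (58089, 54189.6 and 55209) and the splicing protein SNRPD2 (53114, 54379 and 50505). They also held the cytoplasmic actins ACTB (56373, 48199 and 53355) and ACTG1 (55023, 53114 and 54379), the replication-dependent histone gene H4C3 (53562, 48717 and 54189.6) and the membrane-binding protein ANXA2 (53355, 45377 and 49766). The rest were the ubiquitin gene UBB, the tubulin TUBA1C, ENO1, the ATP synthase subunit ATP5F1B, RPL27, RPL8, RPL12, RPS2, RPS25, RPS27, RPS10, RPL38, RPL6, RPS6, RPS15A, RPL17, EEF1G and EIF4A1. The lowest mean signal of the 30 was 47254, that of ATP5F1B. Probes of ribosomal proteins, actins, tubulins and EEF1A1 can also bind transcripts of close copies and processed pseudogenes, which the array cannot separate.

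The messages of the core machinery were detected almost throughout. Of 76 measured ribosomal protein genes 73 were detected, with a median signal of 23372 over the 76, and the 3 at background were RPL10 and the tissue-restricted copies RPL39L and RPL3L. Other copies, among them RPL10L, RPS4Y1 and RPS4Y2, were detected. Of 39 translation factors 38 were detected, and the other, EIF4E, lay in between. Detected members numbered 40 of 45 in the respiratory chain, and the 5 at background (COX4I2, COX6A2, COX6B2, COX7A1 and COX8C) are isoforms known from lung, muscle and testis. Among glycolytic genes 20 of 28 were detected, ENO1 at 49437, 47280.3 and 48394 and LDHA, the lactate dehydrogenase subunit of glycolytic tissue, at 31811, 30049 and 32199. The glycolytic members at background included the sperm isoforms GAPDHS and PGK2, the muscle isoform PGAM2 and the glucose transporters of liver and muscle, SLC2A2 and SLC2A4. ENO3 and PFKM, isoforms also known from muscle, were detected. The proteasome had 29 of 32 detected members, and the 3 at background were PSMA8, PSMB8 and PSMB11, which belong to the proteasomes of testis, immune cells and thymus. PSMB9 and PSMB10, also subunits of the proteasome of immune cells, were detected. Of 39 chaperones 31 were detected, with HSP90AA1 (31928, 35832 and 36187) and HSPD1 (26040.4, 26383 and 28779) among them, while the stress-induced HSPA6 (85.6, 84.4 and 80.7) and the lens crystallin CRYAA (94.3, 83.5 and 96.7) were at background. HSPA1A and HSPA1B encode near-identical heat-shock proteins, and the probe of HSPA1A was at background (69.7, 77.3 and 76.9) whereas HSPA1B gave 15881, 12455 and 15812. All 14 measured reference genes were detected, and TBP, the TATA-binding protein, gave 1601, 1555 and 1515. Measured against the 52.9% of all genes that were detected, these shares describe the lists and were not tested.

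Genes of cell division were detected as well, in 40 of 44 cases (90.9%, against 52.9% of all genes). CDC20, the activator of the anaphase-promoting complex, gave 19888, 20592 and 21394, the replicative helicase subunit MCM7 gave 18205, 18271 and 18038, and thymidylate synthase TYMS gave 16737, 14093 and 14846. CDKN1A, the p53-induced inhibitor p21, was among the brighter members, at 13674, 10869 and 9216. The members at background were the meiotic cyclin CCNA1, CCND2, CCNE2 and E2F1. HCT116 is known as a mismatch repair-deficient line, and 7 of the 9 measured genes of that pathway (77.8%) were detected. MSH6, a mismatch-recognition protein, gave 4453, 5247 and 5272. MSH3, which serves in the recognition of longer loops, gave 5568, 6388 and 8175, and PMS2, an endonuclease of the pathway, gave 530.2, 492 and 499.9. MSH4, a meiotic relative, was at background (97.3, 89.7 and 102). MSH3 and PCNA (3358, 4248 and 5309) were lowest in experiment 1 and highest in experiment 3, so their levels differed more between experiments than did that of PMS2.

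Epithelial genes were mostly detected and genes of differentiated intestine mostly were not. Of 26 measured epithelial genes 19 (73.1%) were detected, and of 35 genes of differentiated colon and intestine 4 (11.4%). The share over all genes was 52.9%, and these differences were not tested. KRT18 gave 34926, 31811 and 34175, KRT8, its filament partner in simple epithelia, gave 6743, 6030.3 and 5315, and KRT19 gave 17453, 18841 and 18271. EPCAM, the surface antigen of epithelial cells, gave 5992, 4979 and 5546, and CDH1, the E-cadherin of adherens junctions, gave 211, 274 and 312, so that all 5 lay above background on each array. Of the claudins, CLDN7 was detected at 526, 519 and 658 and CLDN3 at 176, 163 and 158, while CLDN1 was at background and CLDN4 lay in between. The splicing regulator ESRP1 was detected (431, 476 and 415) and its relative ESRP2 was not (87.3, 88.6 and 80.6). Among 48 keratins 12 (25%) were detected, and KRT20 (98.7, 93.7 and 104), the keratin of mature intestinal cells, was at background.

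Of the colon and intestine list, CA2, a carbonic anhydrase of the colonic surface, gave 8194, 7886 and 7951. CDX2, the transcription factor that defines intestinal identity, gave 796, 682 and 769. The other detected members, the adhesion molecule CEACAM1 (226, 225 and 195) and the mucus protein FCGBP (212, 210.4 and 213), were dim. The 28 members at background included CDX1 (78.6, 81.3 and 73.1), the brush-border protein VIL1 (88.7, 93.7 and 87.3), the liver-intestine cadherin CDH17 (81.9, 75.7 and 78.1) and LGALS4 (89.9, 87.7 and 92.1). They also included the fatty acid-binding protein FABP1 (82.974, 83.8 and 77.5), CEACAM5, the carcinoembryonic antigen (100.3, 95.5 and 95.1), the goblet-cell peptide TFF3 (94.1, 86.3 and 80.4) and the chloride exchanger SLC26A3 (74.7, 80.2 and 64.5). The goblet-cell mucin MUC2 lay in between. Of the genes by which mature colonocytes and goblet cells are recognised, most thus gave no signal above background, although CDX2 did on each array. With the median of all probes as the threshold the number of detected members was 9 in place of 4.

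**Figure D2:**
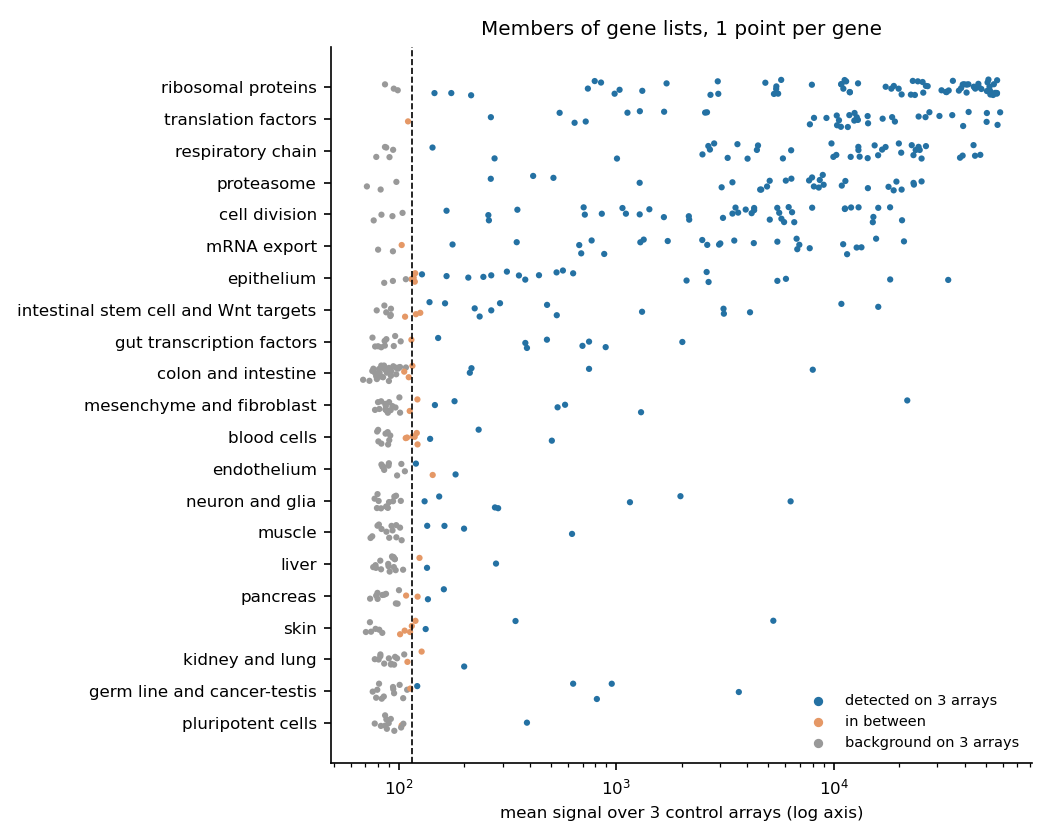
Mean signal over the 3 control siRNA arrays (x axis, log scale) of every measured member of 21 gene lists (rows), 1 point per gene, with vertical scatter for visibility only. Blue points were detected on 3 arrays, grey points were at background on 3 arrays, and the dashed line is the mean of the 3 thresholds. The machinery lists lie mostly to the right and the lists of other lineages mostly at the line or left of it.

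Transcription factors of the gut were detected in 8 of 19 cases (42.1%), below the 52.9% of all genes. SOX9, which marks intestinal crypt progenitors, gave 2257, 1806 and 1974, and ELF3, an epithelial ETS factor, gave 897, 871 and 912. The forkhead factors FOXA3 (714, 690.0 and 692) and FOXA1 (401, 385 and 358) and the zinc-finger factor KLF4 (409, 371 and 383) were detected. GATA4, GATA5 and GATA6, KLF5, the secretory factors ATOH1 and SPDEF, and the foregut factors SOX2 and PDX1 were at background. Of 23 genes of the intestinal stem cell and of Wnt signalling, 14 (60.9%) were detected, a share near that of all genes. CCND1 gave 16627, 15465 and 15998, MYC 10733, 11106 and 10703, and AXIN2, a feedback inhibitor and a direct Wnt target, 1377, 1209 and 1353. CD44 gave 3118, 3233 and 2987 and CTNNB1, the Wnt effector beta-catenin, 3077, 2882 and 3415. The stem cell markers LGR5 (96.2, 80.5 and 80.3), ASCL2 (94.7, 89.2 and 91.6), OLFM4 (76.2, 81.9 and 78.8) and SMOC2 (83.2, 96.5 and 82.4) were all at background, as were LEF1 and APC.

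Lists of other lineages were detected less widely than the 52.9% of all genes, and detected members are given here with their values. RNA from a whole culture does not separate a low level in all cells from a high level in a few. Of 24 mesenchymal genes 6 were detected. S100A4, a calcium-binding protein of motile cells, gave 24462, 21941 and 18990.4, the intermediate filament gene VIM 629, 542 and 571, smooth muscle actin ACTA2 1419.6, 1276 and 1202 and TWIST1 537, 539.9 and 533. PDGFRA (176, 196 and 168) and TAGLN (157, 140.3 and 142) were nearer to background. The factors ZEB1, ZEB2, SNAI1 and SNAI2, fibronectin FN1 and the collagens COL1A2 and COL3A1 were at background. In the blood list 3 of 18 were detected, the globin gene HBA1 (541, 526 and 448), the macrophage marker CD68 (246, 228 and 223) and CD8A (124, 142 and 151), and PTPRC (88.1, 86.8 and 95.8), the common leukocyte antigen, was at background. Of 12 endothelial genes 2 were detected, ESAM (199.7, 174 and 173) and ERG (118, 122 and 118), and CDH5 and VWF were at background. Muscle had 4 of 17, with the myogenic paired-box gene PAX7 at 660.0, 598 and 618 while MYOD1, MYF5 and MYOG were at background. The other muscle genes detected were TNNC1 (219, 206 and 172), MYF6 (161, 175 and 149.6) and MB (133, 136 and 136). Liver had 2 of 19, FGA (309.6, 278 and 251) and SERPINA1 (137, 136 and 130.3), with ALB and AFP at background. Pancreas had 2 of 14, PAX6 (165, 166 and 152) and CEL (145, 143 and 119), with insulin, INS, at background. Kidney and lung had 1 of 15 (PAX8, 216, 201 and 182), prostate and breast 1 of 10 (ERBB2, 413, 432 and 417), skin 3 of 14 and the pluripotent list 1 of 13 (KLF4). KRT10, the keratin of suprabasal epidermis, gave 5522, 5279.7 and 5022 while its filament partner KRT1 was at background (80.3, 70.4 and 83.4). The others of the skin list were KRT15 (384, 352 and 295) and SPRR1B (153, 124 and 121).

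A few genes of other lineages gave signals far above background. In the list of neurons and glia 7 of 20 were detected, among them the tubulin TUBB3 (6427, 6189.9 and 6388), MBP, which also yields transcripts outside myelin (2055, 1918 and 1944), and GAD1, the enzyme that makes the transmitter GABA (1089.5, 1229 and 1147). SYT1 (298, 276 and 283) and SNAP25 (263, 315 and 251), proteins of synaptic vesicle release, were also detected. The neurofilament genes NEFL, NEFM and NEFH and the glutamate transporter gene SLC17A7 were at background. In the list of germ line and cancer-testis genes 5 of 18 were detected. ZP3, an egg-coat glycoprotein, gave 3686, 3895 and 3399.5, PRAME 807, 799 and 835, and the near-identical antigens MAGEA3 and MAGEA6 685, 532 and 682 and 1001, 931 and 925. The germ cell genes DAZL, SYCP1 and SYCP3 and the protamine PRM1 were at background. The lists with few detected members depended on the threshold. At the 99th percentile of olfactory receptor probes, detected members fell to 0 for endothelium, 0 for pancreas, 2 for muscle and 1 for liver. With the median of all probes they rose to 8 for blood, 8 for the germ line list, 5 for pancreas, 5 for skin, 4 each for endothelium, liver and kidney and lung, 3 for prostate and breast and 2 for the pluripotent list. Without the control array of experiment 1 the kidney and lung list and the prostate and breast list each had 2.

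Globin genes were detected unevenly. Globins are the oxygen carriers of red cells, and the beta-like genes are switched in order from embryonic (HBE1) through fetal (HBG1 and HBG2) to adult (HBB). HBE1 gave signals of 5711, 6452 and 5459 in experiments 1, 2 and 3. HBG2 gave 710.2, 861 and 721 and HBG1 663, 644 and 625. These are a near-identical pair that probes may not separate. HBB (76.6, 86.6 and 78.1) and HBD (78.7, 80.8 and 78.6), the adult genes, were at background. The embryonic and fetal genes were thus detected on each array and the adult genes on none. On the alpha side HBA1 gave 541, 526 and 448 and HBA2 313, 300.1 and 256, which are again near-identical, and HBZ, the embryonic alpha-like gene, gave 108, 134 and 136 and lay in between. The red-cell factor GATA1 was at background (81.7, 77.1 and 81.8). The beta-globin cluster of chromosome 11 lies among olfactory receptor genes, and OR51B4, the next measured gene after HBE1 in the RefSeq order, had the brightest signal of all 367 olfactory receptor genes, at 1116, 1132 and 981. OR51B5 (205, 209 and 191), OR51B2 (132, 132 and 124) and OR52A5 (213, 206 and 203) of the same neighbourhood were also detected. In all, 4 of the 15 measured olfactory receptor genes of this neighbourhood were detected. The 3.81% of the whole family includes these 4 and follows from the threshold, which the same probes set. The neighbourhood was bounded by genes picked by name, so these shares do not show that detection was more frequent there. The globin and olfactory receptor genes other than HBA1, HBB and GATA1 were chosen after their values were seen, and the olfactory receptor probes named here are among those that set the threshold.

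**Figure D3:**
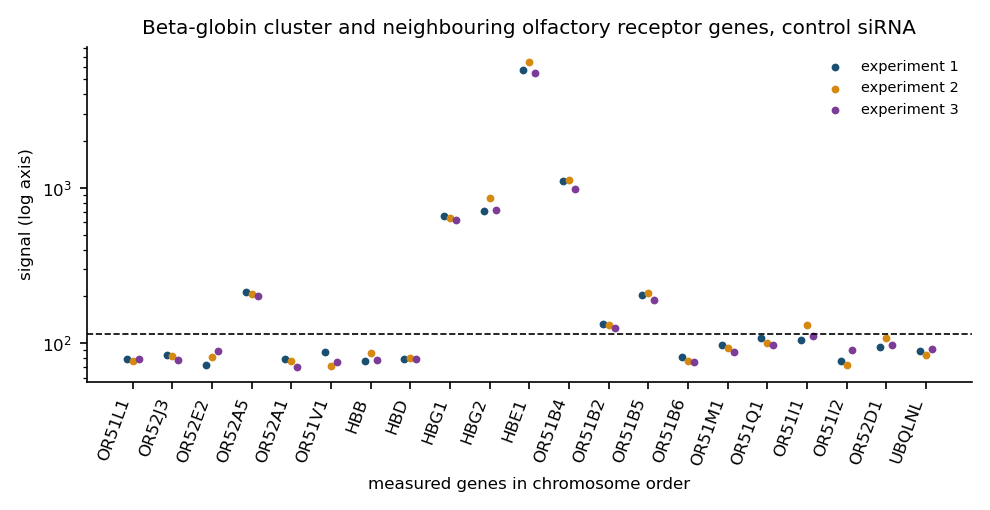
Signal on the 3 control siRNA arrays (y axis, log scale) of 21 measured genes of the beta-globin cluster and its neighbourhood, in chromosome order, with 1 point per experiment and the mean detection threshold as a dashed line. HBE1, HBG2, HBG1 and OR51B4 stand above the line in all 3 experiments, and HBB and HBD lie below it.

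HOX genes, which record position along the body axis, were detected in 18 of 29 measured cases (62.1%, against 52.9% of all genes), most of them at low signals. HOXB7 gave 4923, 4209 and 4363, HOXB8 3424, 3439 and 3418, HOXB5 1361, 1384 and 1301 and HOXC6 1339, 1462 and 1384. These 4 genes, all from the middle of their clusters, had signals above 1000 on each array, and no other HOX gene did. HOXB4 gave 406, 293 and 299, HOXD13 333, 333 and 369 and HOXC13 286, 312 and 263. HOXB6, which lies between HOXB5 and HOXB7, was dim (137, 122 and 148), and HOXB9 (96.5, 89.5 and 100.2) and HOXB13 (92.9, 105 and 92.9), the last gene of the cluster, were at background. In the D cluster HOXD8, HOXD9 and HOXD10 were at background while HOXD12 gave 218, 273 and 276. At the 99th percentile of olfactory receptor probes 9 of the 29 were detected.

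Receptor tyrosine kinases, which relay growth factor signals, gave low signals. Of 37 measured, 18 were detected (48.6%, against 52.9% of all genes), and 9 at the 99th percentile of olfactory receptor probes. FGFR3 gave 764, 845 and 867, AXL 692, 523 and 433, EPHB4 489, 396 and 384 and ERBB3 391, 345 and 311. AXL was highest in experiment 1 and lowest in experiment 3. EGFR gave 176, 162 and 149.8 and MET 143, 159 and 173, while IGF1R (79.4, 78.7 and 80.9), FGFR1 and PDGFRB were at background. Antigen presentation genes were detected in 11 of 20 cases (55%), close to the share of all genes. B2M, the light chain of class I molecules, gave 2225, 2829 and 2562 and the peptide transporter subunit TAP1 1078, 860.1 and 763. The class I heavy chain HLA-B gave 283, 273 and 321. The class II genes HLA-DRB1, HLA-DPA1 and HLA-DPB1 were at background, while HLA-DMA and HLA-DMB, also of class II, were detected.

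The mRNA export machinery, whose depletion the study set against these cells, was detected almost in full. Of 29 measured export genes 26 were detected (89.7%, against 52.9% of all genes). MCM3AP, which encodes GANP, the scaffold of the TREX-2 complex at the nuclear pore, gave 782, 903 and 954. Its TREX-2 partners ENY2 (12889.5, 13757 and 13601), PCID2 (7153, 6986 and 6703), SEM1 (21311, 20778 and 21068) and CETN2 (7455, 6645 and 6294) were detected too. The adaptor ALYREF gave 16359.6, 14921 and 15728, the helicase DDX39B 6811, 6517 and 6922, the THO subunit THOC5 3332, 2688 and 3004, and the cofactor of NXF1, NXT1, 5641, 5634 and 5241. TPR, a filament protein of the nuclear basket, gave 647, 746 and 917. NXF3, a relative of NXF1 known from testis, was at background (83.9, 99.4 and 98.1), and NXF1 was not analysed here. The transcripts that the study followed individually were detected in these cells, except MALAT1, and PDXP was not analysed here. EXOSC6 gave 3667, 3772 and 3279.7, GALK1 5505, 5454 and 5599.7, TST 5463, 5714 and 5478, LLGL1 1875, 1998 and 1993, FOSL1 1374, 1175 and 1034, ARPP19 1293, 1028 and 987, SP1 936, 1133 and 1097 and IDH2 925, 1095 and 1067.

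RNAs that reside in the nucleus serve as a reference for the cytoplasmic fraction, and were measured in a list of 11 noncoding RNAs, some of which also work in the cytoplasm. MALAT1, a long noncoding RNA held in nuclear speckles, was at background on each array, at 82.1, 78.7 and 82.2 from its single probe. In all 7 of the 11 (63.6%) were detected, against 52.9% of all genes. RN7SK, the RNA that holds the elongation factor P-TEFb inactive in the nucleus, gave 983, 780.2 and 640.0, RPPH1, the RNA of nuclear RNase P, gave 415, 366 and 450.0, and the telomerase RNA TERC 229, 215 and 234. RN7SL1, the RNA of the signal recognition particle, which works in the cytoplasm, gave 8536, 9269 and 12245. RN7SK was highest in experiment 1 and RN7SL1 in experiment 3. The study itself measured MALAT1 by qPCR and reported that its fractionation was efficient. The labelling of polyadenylated RNA and the lack of a nuclear array limit what the present values say of the fractionation, and the share of nuclear RNA was not tested here.

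The 3 control experiments differed little. Over all probes the log2 signals of a pair of control arrays correlated at r = 0.995 to 0.996, a description across probes that share the array and its normalization. Among the 9872 detected genes the SD of log2 signal over the 3 arrays had a median of 0.0916, and the brightest and dimmest array of a gene differed by a median of 1.13-fold. The corresponding median SDs were 0.0982 in the GANP siRNA arrays and 0.107 in the NXF1 siRNA arrays. A range above 1.5-fold was found in 98 genes (0.993%), and a range above 2-fold in 1. Experiment 1 lay farthest from the others. The log2 differences between its array and those of experiments 2 and 3 had SDs of 0.168 and 0.201, against 0.139 between experiments 2 and 3. Without it the median SD over the remaining pair of arrays was 0.0611, against 0.0890 without experiment 2 and 0.0763 without experiment 3. A median SD over 2 arrays tends to be lower than one over 3, so these are not set against 0.0916. All 3 arrays of the group were given the same distribution of signals by normalization, so differences in total RNA cannot be seen.

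The 20 detected genes with the largest SD were CTSZ, LRRC58, NOP58, H2BC5, FOS, SNORD48, EXOSC9, IMPACT, FADS1, PKMYT1, NLRP8, CSNK1G2, BUB1, ASPM, SCARNA9, TUBGCP5, BUB1B, CLEC2D, MUC4 and IER3IP1. They were chosen for their spread, so their control values are a description. CTSZ, a lysosomal protease, gave 602, 418 and 303 in experiments 1, 2 and 3, highest in experiment 1. NOP58, a core protein of box C/D small nucleolar RNPs, gave 1191, 2067 and 2071 and was lowest in experiment 1. EXOSC9, a subunit of the RNA exosome, gave 2517, 3992 and 4343, again lowest in experiment 1. LRRC58 gave 1255, 1064 and 671 and was lowest in experiment 3, and the immediate-early gene FOS gave 1035, 725 and 569, highest in experiment 1. The spindle proteins ASPM (535, 740.3 and 901) and BUB1 (1257, 1560.2 and 2147) and the checkpoint kinase BUB1B (191, 278 and 308) were all lowest in experiment 1. The small RNAs SNORD48 (124, 160.0 and 215) and SCARNA9 (134, 158 and 218), which work in nucleoli and Cajal bodies, were both dim and highest in experiment 3. Set against the mean of the other 2 arrays, the array that stood apart was that of experiment 1 in 13 genes (higher in 6, lower in 7), of experiment 3 in 6 and of experiment 2 in 1.

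Whether these differences belong to the experiment was asked in the 6 arrays that had not been used to choose the genes, those with GANP or NXF1 siRNA, by limma's moderated test of each experiment against the mean of the other 2 with the siRNA as a term. Over the 9872 genes, experiment 1 was higher in 121 (1.23%) and lower in 187 (1.89%) at an adjusted p under 0.05. Experiment 3 was higher in 0 (0%) and lower in 1 (0.0101%), and experiment 2 differed in 0 (0%) either way. At an unadjusted p under 0.05 the counts were 2599, 1087 and 1775 genes for experiments 1, 2 and 3. Of the 20 genes, 18 had the same sign in the depleted arrays as in the controls, 8 passed the test in that direction and 0 passed it in the other. Those 8 were CTSZ, LRRC58, NOP58, H2BC5, EXOSC9, ASPM, MUC4 and IER3IP1. How many of all 9872 genes kept their sign was not counted, so the 18 of 20 have no share to be set against. NOP58 was lower in experiment 1 by a log2 difference of -0.79 (standard error 0.066, adjusted p = 0.0159) in the depleted arrays and of -0.80 in the controls. CTSZ was higher in experiment 1 by 0.71 (standard error 0.068, adjusted p = 0.0238) in the depleted arrays and by 0.78 in the controls. LRRC58 differed in experiment 3 by -1.11 (standard error 0.094, adjusted p = 0.0183) and by -0.80 in the controls. FOS and CSNK1G2 did not keep their sign, at -0.08 and -0.25 in the depleted arrays against 0.70 and 0.68 in the controls. The test rests on 2 residual degrees of freedom. Without the GANP siRNA array of experiment 1, 1 of the 20 passed, as it did without the NXF1 siRNA array of experiment 1, 4 passed without the NXF1 siRNA array of experiment 2, and 13 without that of experiment 3.

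**Figure D4:**
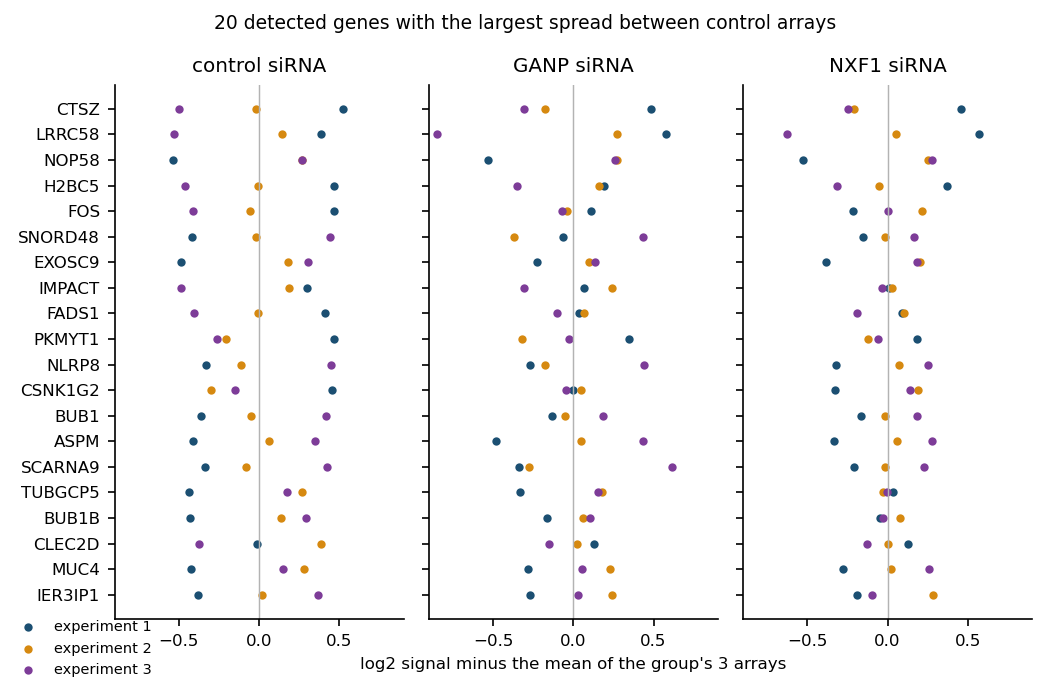
Log2 signal minus the mean of the group's 3 arrays (x axis) for the 20 detected genes with the largest spread between control arrays (rows), in the control, GANP and NXF1 siRNA arrays (panels), with 1 point per experiment. In NOP58 and ASPM experiment 1 is lowest in each panel, in CTSZ it is highest in each panel, and in FOS the order differs between panels.

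The deviations of the control arrays from their group mean also ran with those of the depleted arrays of the same experiment across all detected genes. The correlation with the GANP siRNA arrays was 0.54, 0.26 and 0.43 in experiments 1, 2 and 3, and with the NXF1 siRNA arrays 0.45, 0.11 and 0.46. Genes share an array and a normalization and are not independent replicates, so no p is given.

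A last description concerns the promoters of the genes. Of the measured genes, 14783 had a promoter in the RefSeq table, from 250 bases before the annotated start to 50 after it. A promoter was called CpG-rich at a GC content of at least 55% and a CpG frequency of at least 0.65 of that expected from its C and G content. Such promoters, which are known to lie at housekeeping genes and to stay unmethylated, made up 74.9% of 8167 detected genes and 32.7% of 5581 genes at background, against 57.0% of all measured genes and 41.9% of all 27305 promoters. Over deciles of genes ordered by control signal, the share was 26.5% in the dimmest, 56.2% in the fifth and 79.4% in the brightest. Genes of the colon and intestine list had CpG-rich promoters in 2 of 27 cases, liver genes in 1 of 13, and ribosomal protein genes in 47 of 64. The letters TATAAA, searched on the strand of the gene from 45 to 16 bases before the start, were found in 1.69% of detected genes and 6.0% of genes at background, against 3.51% of all measured genes and 2.63% of all promoters, and in 4 of 13 liver genes. The share did not fall throughout, at 1.22% in the ninth decile and 2.23% in the brightest. Of the 100 brightest genes, 82 had a promoter and 5 of these (6.10%) had the letters.

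The pyrimidine run was spread differently. A start with C followed by at least 5 pyrimidines was found in 3.00% of all promoters, in 3.61% of those of measured genes and in 4.44% of those of detected genes. It was found in 40 of 64 ribosomal protein genes (62.5%), 11 of 30 translation factors (36.7%) and 6 of 37 respiratory chain genes (16.2%), and in 0 of 26 glycolytic, 0 of 28 proteasome and 0 of 31 cytoskeletal genes. Of the 100 brightest genes 82 had a promoter in the table and 28 of these (34.1%) had the run. Without ribosomal proteins and translation factors 6 of 46 had it. The share was between 2.10% and 3.99% in every decile of genes but the brightest, where it was 8.65%. A single annotated start was used for each gene, and it can lie away from the start used in these cells. A start without the run is therefore only a window that fails this rule. The printed start of RPL41 has a C with fewer than the 5 pyrimidines required after it, and that of RPL27 begins with an A. Genes are not replicates, and these shares carry no test.

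**Figure D5:**
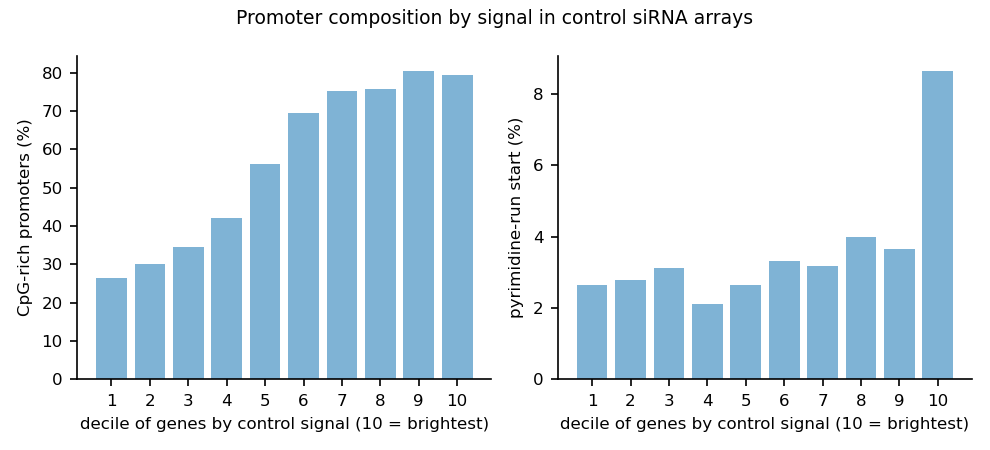
Percent of genes with a CpG-rich promoter (left) and with a start of C followed by at least 5 pyrimidines (right) in each decile of 14783 genes ordered by mean control signal (x axis, 10 is brightest), with axes that start at 0. The first share rises over the lower deciles to 79.4%, and the second is at most 3.99% until the brightest decile, at 8.65%.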

How the data were processed

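Cytoplasmic RNA of HCT116 cells was hybridised to 9 Illumina HumanWG-6 v3 arrays, and only the 3 control siRNA arrays are described, apart from the test between experiments. As the methods describe, the authors quantile normalized the signals, and the deposited values are intensities on a linear scale from which no background was subtracted, as far as the values show. The submitters' processing notes name lumi, with no version. A table of signals before normalization, with detection p-values, has 18 such columns, which no label ties to a sample, and was not used. Probes were named from GEO's platform annotation: 27578 carried 1 symbol, 13 several and 21212 none, and 0 symbols needed updating. Of the 100 brightest probes 42 carried no symbol and are not named.

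Levels are deposited signals of each gene's brightest probe. Spread and test used log2 values after normexp (offset 50) in limma 3.58.1 under R 4.3.3, without a second normalization. The 6 depleted arrays were fitted with experiment and siRNA as terms (2 residual and 6.285 prior degrees of freedom), Benjamini-Hochberg adjustment was made within each contrast, and the script was tested on simulated data. The number of arrays, 3 a group, limits the precision. The p-values set the difference between experiments against the disagreement of the GANP and NXF1 siRNA arrays of the same experiment. The same experiment number marks the arrays of a shared depletion experiment, which is the term tested.

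The 33 gene lists and all members were chosen with earlier results of these data known. Genes could be named if they were among the 30 brightest, the 20 with the largest spread, or members of the colon, gut factor, epithelium, mesenchyme, HOX, mismatch repair, nuclear RNA, reference and export lists or, of other lists, among the 6 detected members with the highest signal or the first 6 at background, and not every such gene is named. The tissue-restricted isoforms, the detected copies and subunits named beside them, CDKN1A, HSPA1B, EGFR, MET, GATA1, COX4I1, HLA-DMA, HLA-DMB and the globin and olfactory receptor genes outside this rule were chosen after their values were seen. Alternatives changed the threshold (percentile 90 or 99 of olfactory receptor probes, or the median of all probes), the probe rule, the number of arrays required, the background correction (none, or offset 16), a second quantile normalization, the filter, an intensity trend, the adjusted p threshold (0.1), the choice of the 20 genes, and each array in turn. Olfactory receptor pseudogenes, left out of the threshold, were included in an alternative added after the data were seen. Some members of the lists are not reported here.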

Additional observations from a re-analysis of the deposited data

How the results depend on the processing

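No paired analysis was possible because no groups were compared, and the experiment number, which would form the replicate block, was itself the term tested. The number of detected genes was between 8129 (99th percentile) and 11888 (median of all probes) under all alternatives, 9673 with olfactory receptor pseudogenes included, a setting added after the data were seen, and 9989 to 10221 with each control array left out. Of 33 lists, the number of detected members moved by more than 1.5 times in 10 with the median of all probes, in 6 at the 99th percentile, in 2 without the control array of experiment 1 and in 0 without either other control array. The median SD between control arrays was 0.0611 to 0.0890 with 1 array left out, lowest without experiment 1, and 0.0886 to 0.101 with other background corrections. Of the 30 brightest genes 20 remained among the 30 with the mean of a gene's probes. The number of the 20 variable genes that passed the test in the depleted arrays, 8, was 3 with all genes tested, 5 with the mean of a gene's probes and 1 to 13 with each depleted array left out. The number called in any contrast over all genes, 308, was 5 with all genes tested, 180 with the mean of probes, 1177 with an intensity trend and 1 to 874 with each depleted array left out. The cause was not tested. Signals near background and single probes limit every call of a silent gene.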
